A study of Rattus norvegicus with 24 samples.

Results

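The genes described are the mitochondrial solute carriers of the SLC25 family in rat liver, 40 of the 17245 genes measured. A gene was taken when its symbol was Slc25a followed by a number and a probe set on the array was paired with that symbol alone. Slc25a13, Slc25a15 and Slc25a20 were set aside by the selection and are not described. The rule picks genes by symbol alone, and measured values enter only in keeping the probe set with the highest mean for each gene. The family was, however, picked with earlier results of these data known. Liver total RNA of 24 male Wistar rats was hybridised to Affymetrix whole-transcript arrays, 1 array per rat. The rats had eaten a diet with 5% protein for 1 week, 20% protein for 1 week, 5% protein for 4 weeks or 20% protein for 4 weeks, with 6 rats in each group. Diet and time are those of the sample titles, and the codes in the sample descriptions carry other percentages. The age and body weight of the rats, and what replaced the protein in the 5% diet, are not given in the sources used here.

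SLC25 carriers are small proteins of the inner mitochondrial membrane, and each swaps or lets through its own class of metabolite. They bring ADP, phosphate, iron, glutathione, coenzyme A, nucleotides and S-adenosylmethionine into the matrix, and send ATP, citrate and dicarboxylates out. In liver they connect the matrix with the urea cycle, gluconeogenesis, fatty acid synthesis, haem synthesis and the transfer of reducing equivalents from cytosolic NADH. Several members have no settled substrate.

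Among the 34 members with a promoter window in the RefSeq table of assembly GRCr8 (250 bases before to 50 bases after a transcript start, 36 windows), 5 letter patterns were searched on both strands. The CRE letters TGACGTCA, which CREB and ATF proteins bind, stood in the windows of 2 members, Slc25a33 and Slc25a25. That was 5.88% of the members with a window, and 1.83% of all 33469 windows held it. Both genes were called at 4 weeks, in opposite directions, and the 250 bases before their starts are shown for that reason, with the CRE and E-box letters in capitals, 5′ to 3′ along the gene. Slc25a33 lies on the minus strand at chr5:165502974-165503223 and Slc25a25 on the minus strand at chr3:36116582-36116831, both GRCr8.
Slc25a33: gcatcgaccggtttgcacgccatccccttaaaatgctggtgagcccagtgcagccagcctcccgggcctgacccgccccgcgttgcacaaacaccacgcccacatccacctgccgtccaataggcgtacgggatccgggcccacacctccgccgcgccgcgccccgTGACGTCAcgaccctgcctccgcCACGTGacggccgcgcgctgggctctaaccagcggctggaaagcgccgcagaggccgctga
Slc25a25: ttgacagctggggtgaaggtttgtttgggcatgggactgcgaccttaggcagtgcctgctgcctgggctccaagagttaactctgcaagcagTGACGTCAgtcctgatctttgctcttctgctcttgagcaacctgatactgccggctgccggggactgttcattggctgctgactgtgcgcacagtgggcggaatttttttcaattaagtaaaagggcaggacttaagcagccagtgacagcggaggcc
The CRE begins at base -84 from the start in Slc25a33 and at base -158 in Slc25a25, and the E-box of Slc25a33 begins at base -61, so the 2 patterns do not overlap there.

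The E-box letters CACGTG stood in windows of 4 members, Slc25a2, Slc25a31, Slc25a33 and Slc25a48, which is 11.8% of members against 6.42% of all windows. Slc25a48 held them 3 times in 1 of its 2 windows. The letters GCGCANGCG, bound by NRF1, stood in windows of Slc25a31 and Slc25a42, 5.88% of members against 5.8% of all windows. No member window held TGATGNAAT, the pattern of amino acid response elements that ATF4 binds, which 1.09% of all windows held. TCAAGGTCA, bound by ERR receptors, was in no member window and in 0.433% of all windows. The shares of members count genes, while those of all promoters count windows. Of the 36 member windows, 2 held the CRE, 4 the E-box and 2 the NRF1 letters. A match describes the letters only, and 28 members with a window had none of the 5 patterns.

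The deposited values were intensity of probe sets after RMA, used here as log2, so that a difference of 1 is a doubling. The medians of the arrays lay between 42.4 and 45.5 intensity units. RMA values carry no detection call, and RMA compresses differences near the low end of the scale. The 7 hepatocyte markers measured, such as albumin and transthyretin, summed to a log2 level of 15.74 to 16.06 in 5% livers and 15.95 to 16.20 in 20% livers at 4 weeks. At 4 weeks on 5% protein 6 of 8 Kupffer cell markers fell, with summed log2 levels of 11.41 to 11.76 on 5% protein and 11.96 to 12.74 on 20% protein. The erythroid sum was 7.95 to 9.74 on 5% protein and 8.70 to 10.73 on 20% protein at 4 weeks, with 0 of 8 markers higher and 1 lower. Of the other marker lists at 4 weeks, 4 of 7 hepatocyte, 2 of 7 stellate and 1 of 4 endothelial markers were lower. So were 1 of 10 dividing cell and 1 of 5 adipocyte markers, while 2 of 5 biliary markers were higher. None of 4 lymphocyte and 6 exocrine pancreas markers was called in limma (1 of each at an unadjusted p below 0.05). Over all genes, 12.4% were called lower and 13.4% higher at 4 weeks. At 1 week the erythroid sum was 8.17 to 10.10 on 5% protein and 9.69 to 11.30 on 20% protein. There 3 of 8 erythroid markers were lower, beside 2.44% of all genes. The part of these cell types in the carrier values was not tested, and in whole liver fewer cells of a type cannot be told apart from less RNA per cell.

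The animal numbers in the titles fall into 4 runs. The second and the fourth runs are the 1-week rats, with 3 of each diet in each run. The first and the third runs are the 4-week rats, and there the 5% group has 5 rats in the first run and 1 in the third, while the 20% group has 2 and 4. The labels do not say what the runs are, and diet differences within each run are therefore given beside the pooled ones. A value for the third run sets 1 rat on 5% protein against 4 on 20% protein, with its spread assumed to be that of the other groups. It is therefore printed as a difference without a p-value. The counts of alternatives at 4 weeks still take in whether a gene was called in that run alone. At 1 week, diet and the row of the well in the array names cannot be told apart, because the diets share no row. Among the 4-week rats, rows A and C held only the 5% diet, row F only the 20% diet, and rows B and E both. Diet and row are therefore partly tied at 4 weeks as well. Time and run cannot be told apart either, because no run holds rats of both feeding times.

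At 4 weeks the liver carried more RNA for 9 of the 40 carriers and less for 10 on 5% protein than on 20% protein, and at 1 week for 1 and 2. A gene was called when its Benjamini-Hochberg adjusted p over all 17245 genes was below 0.05 in limma, and "rose" and "fell" are used for called genes. The 19 members called at 4 weeks are 47.5% of the family, where 25.8% of all genes were called, 13.4% higher and 12.4% lower. Of the 40 members 4 were among the 5748 dimmest of the 17245 genes, where RMA compresses differences. The values for all genes, here and below, were not matched to the family by signal level. The part of signal level in these contrasts was not tested. The 3 called at 1 week are 7.5%, against 4.3% of all genes (1.86% higher and 2.44% lower), a difference of few genes. The 3 members called at 1 week, Slc25a33, Slc25a35 and Slc25a48, were called again at 4 weeks in the same direction. Another 16 were called at 4 weeks only, and 21 were called at neither week.

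The family did not shift one way at 4 weeks. Its median log2 difference was -0.01, as 9 rises and 10 falls balanced, while its median absolute difference was 0.31, beside 0.15 over all genes. At 1 week the median was -0.04 and the median absolute difference 0.22, beside 0.10 over all genes. These absolute differences were not matched by signal level either. At 4 weeks the diets did not overlap for 8 members, Slc25a26, Slc25a27, Slc25a28, Slc25a33, Slc25a35, Slc25a39, Slc25a43 and Slc25a48, 6 of them higher, and all 8 were called. That is 20% of the family, beside 12.4% of all genes with no overlap. At 1 week the diets of Slc25a33 alone did not overlap, beside 2.56% of all genes. The rises of at least 1.5-fold at 4 weeks numbered 7 and the falls of that size 5.

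**Figure D1:**
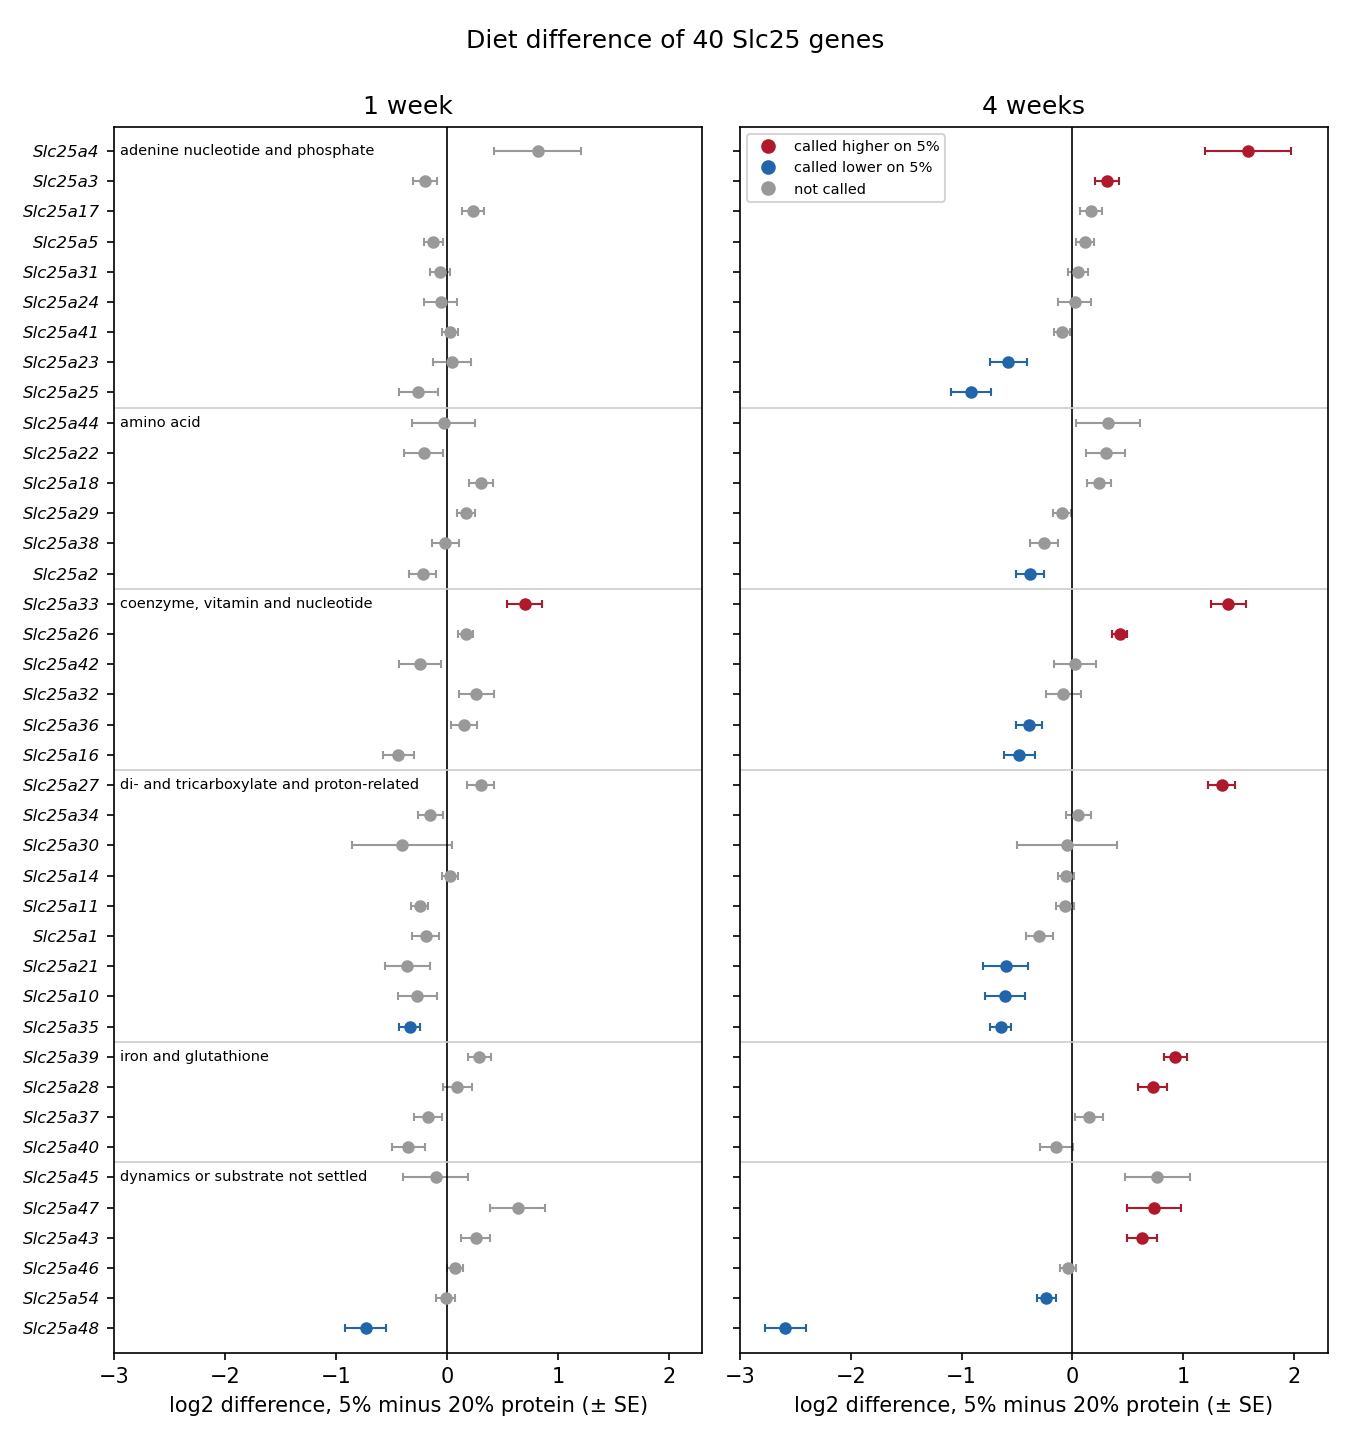
Log2 difference between 5% and 20% protein (x axis, bars are standard errors of the limma fit, n = 6 rats per group) for each of the 40 Slc25 genes, grouped by substrate, at 1 week (left) and 4 weeks (right). Called genes are coloured: 1 rose and 2 fell at 1 week, 9 rose and 10 fell at 4 weeks, and the fall of Slc25a48 lies furthest to the left.

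Carriers of coenzymes and nucleotides gave 2 rises and 2 falls among 6 members at 4 weeks. Slc25a33, which imports pyrimidine nucleotides for mitochondrial DNA and RNA synthesis, was the member called higher at both weeks. At 1 week its lowest, median and highest log2 levels (probe set 10881812) were 8.63, 8.74 and 9.02 on 5% protein and 7.75, 8.12 and 8.36 on 20% protein. At 4 weeks they were 8.95, 9.14 and 9.19 on 5% protein and 6.97, 7.63 and 8.49 on 20% protein. Every 5% rat lay above every 20% rat at both times, and at 4 weeks the 5% rats kept together (SD 0.09) while the 20% rats were spread widely (SD 0.51). The difference was 1.40 ± 0.16 (SE, 2.65-fold, adjusted p = 4.61e-07) at 4 weeks and 0.70 ± 0.16 (1.63-fold, adjusted p = 0.0107) at 1 week. The 4-week effect exceeded the 1-week effect by 0.70, which did not pass (adjusted p = 0.0618). Within runs, the 4-week difference was 1.30 in the first run and 1.31 in the third. At 1 week it was 0.90 in the second run and 0.51 in the fourth, where it did not pass on its own (adjusted p = 0.199).

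Slc25a26 brings S-adenosylmethionine, the methyl donor, into the matrix. Its log2 levels at 4 weeks (probe set 10857412) were 7.96, 8.04 and 8.11 on 5% protein and 7.42, 7.58 and 7.80 on 20% protein, with no overlap. The rise was small and even, 0.43 ± 0.07 (1.34-fold, adjusted p = 4.25e-05). The first run gave 0.37 (adjusted p = 0.00865), the third 0.46. The 1-week levels were 7.71, 7.82 and 7.96 on 5% protein and 7.53, 7.65 and 7.82 on 20% protein, a difference of 0.17 (adjusted p = 0.167). At that time the fourth run gave 0.32 (adjusted p = 0.0288) and the second 0.02.

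The 2 falls of this group were Slc25a16, linked to coenzyme A transport, and Slc25a36, which like Slc25a33 carries pyrimidine nucleotides. Slc25a16 was at 9.004, 9.14 and 9.51 on 5% protein and 9.45, 9.52 and 10.07 on 20% protein at 4 weeks, and only the highest 5% rat reached the 20% range. It fell by 0.48 ± 0.14 (adjusted p = 0.0119), yet the third run alone gave -0.11 and the call was lost with the run as a covariate (adjusted p = 0.0571). At 1 week its levels were 8.92, 9.32 and 9.45 on 5% protein and 9.15, 9.72 and 10.04 on 20% protein, a difference of -0.44 (adjusted p = 0.0748). Slc25a36 was at 6.05, 6.24 and 6.57 on 5% protein and 6.44, 6.63 and 6.86 on 20% protein at 4 weeks, and fell by 0.39 ± 0.12 (adjusted p = 0.0174). The call was lost in the first run alone (-0.39, adjusted p = 0.161) and with the run as a covariate (adjusted p = 0.0851), and the third run gave -0.28. Its probe set may share signal with the near copy Slc25a36l1, since another probe set was paired with both symbols. Slc25a42, a coenzyme A carrier, differed by 0.02 and Slc25a32, linked to folate and FAD import, by -0.08, and neither was called.

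Iron and glutathione carriers rose or were not called, with 2 rises among 4 members at 4 weeks. Slc25a39, a glutathione importer, had log2 levels (probe set 10747836) of 10.94, 11.32 and 11.43 on 5% protein and 10.17, 10.27 and 10.51 on 20% protein at 4 weeks. At 1 week the levels were 10.41, 10.66 and 11.01 on 5% protein and 10.24, 10.42 and 10.59 on 20% protein. The diets separated fully at 4 weeks and overlapped at 1 week. The 4-week rise was 0.93 ± 0.10 (1.90-fold, adjusted p = 5.22e-07), the 1-week difference 0.29 (adjusted p = 0.119), and the diet effect grew by 0.63 ± 0.15 between them (adjusted p = 0.0155). A second probe set of the gene, tested on its own, rose by 0.84 at 4 weeks (adjusted p = 6.07e-06). The second run alone gave 0.06 at 1 week and the fourth run 0.53 (adjusted p = 0.0116). Its close relative Slc25a40 was not called (-0.14 at 4 weeks, -0.35 at 1 week, adjusted p = 0.553 and 0.222).

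Slc25a28, known as mitoferrin 2, brings iron into mitochondria outside the erythroid lineage. At 4 weeks it was at 8.86, 9.13 and 9.47 on 5% protein and 8.23, 8.36 and 8.70 on 20% protein (probe set 10715359), with no overlap. At 1 week it was at 8.34, 8.80 and 9.17 on 5% protein and 8.47, 8.71 and 8.95 on 20% protein, with the 5% rats on both sides of the 20% range. It rose by 0.72 ± 0.13 (1.65-fold, adjusted p = 0.000149) at 4 weeks. The first run gave 0.73 (adjusted p = 0.00137), the third 1.02. The 1-week difference was 0.09 (adjusted p = 0.786), made of 0.42 in the fourth run and -0.23 in the second, and these 2 values differed from each other (0.65, adjusted p = 0.0469). The growth of the diet effect with time, 0.63 ± 0.18, passed narrowly (adjusted p = 0.0409) and was lost under 16 of 35 alternatives. Slc25a37, mitoferrin 1 of developing red cells, was not called for diet (0.15 at 4 weeks, adjusted p = 0.456), while the erythroid marker Alas2 fell by 1.80 (adjusted p = 0.00968). On 20% protein Slc25a37 was lower at 4 weeks than at 1 week, by -0.47 (adjusted p = 0.0487), with levels of 7.38, 7.70 and 8.13 at 4 weeks and 8.10, 8.19 and 8.32 at 1 week.

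**Figure D2:**
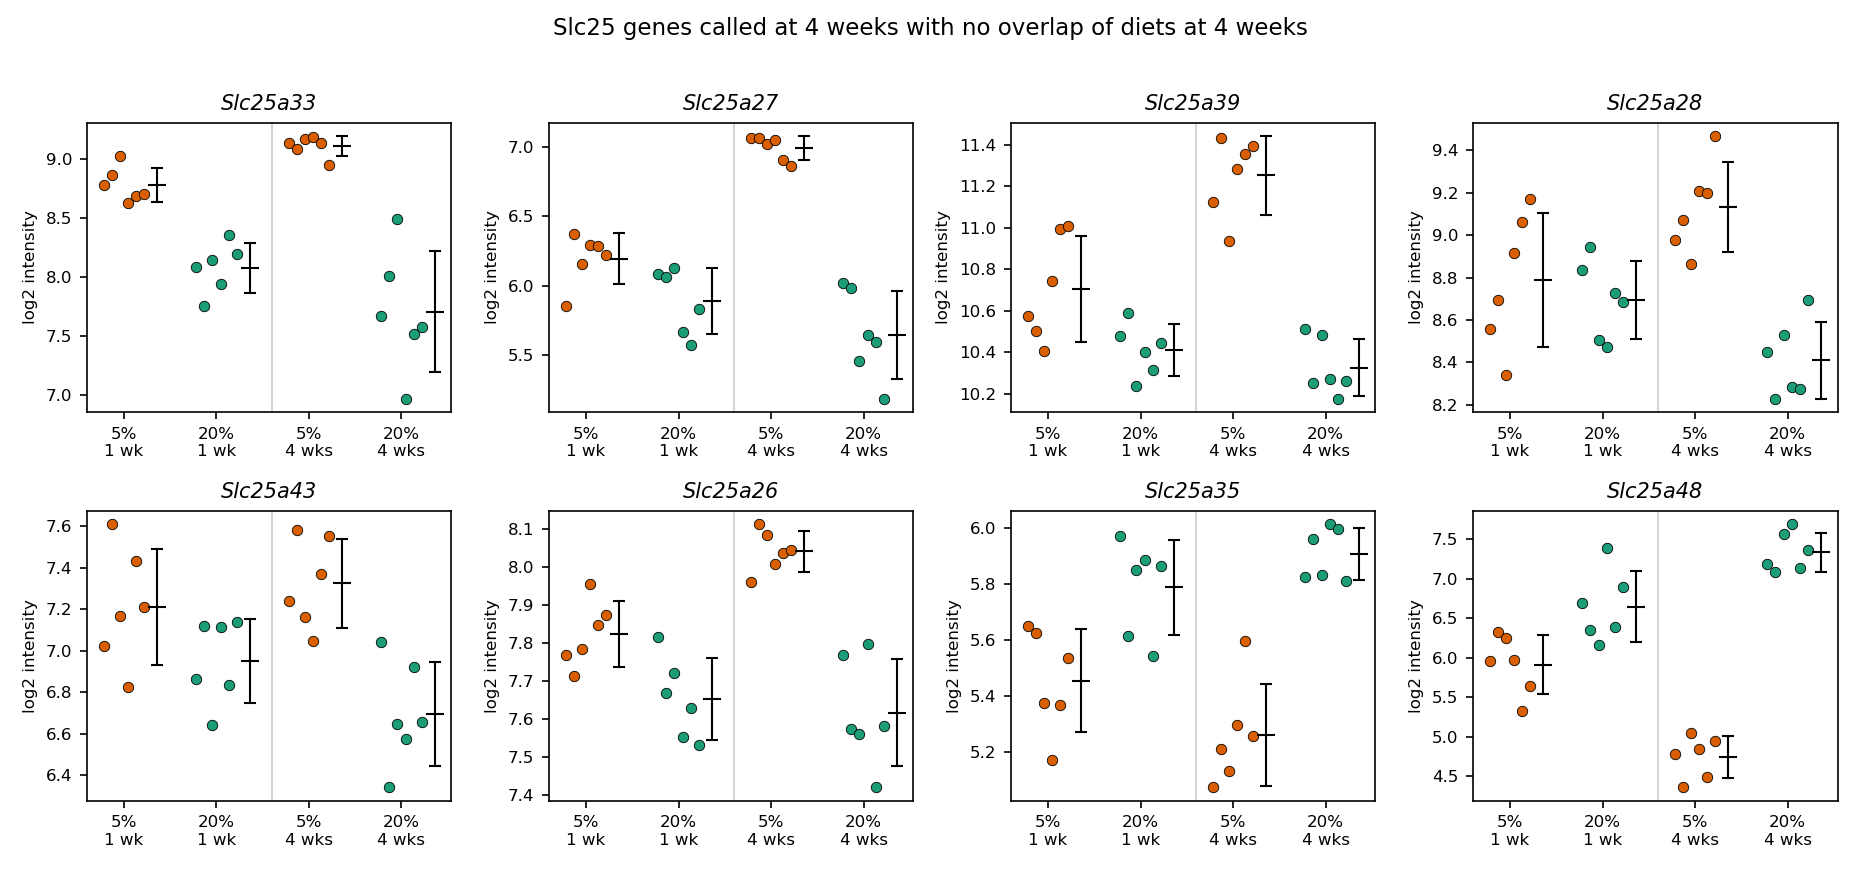
Log2 intensity (y axis, a scale of its own in each panel) of the 8 Slc25 genes called at 4 weeks whose diets did not overlap there. Each point is a rat, orange on 5% and green on 20% protein, and the bar beside each group is its mean and SD (n = 6). Slc25a33 was already separated at 1 week, and Slc25a48 moved down on 5% and up on 20% protein between 1 and 4 weeks.

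Di- and tricarboxylate carriers and the proton-related members gave 1 rise and 3 falls among 9 at 4 weeks, and 1 fall at 1 week. The rise was Slc25a27, known as UCP4, which resembles the uncoupling proteins and is best known from brain. Its log2 levels at 4 weeks (probe set 10921916) were 6.86, 7.03 and 7.06 on 5% protein and 5.19, 5.62 and 6.02 on 20% protein. At 1 week they were 5.85, 6.25 and 6.37 on 5% protein and 5.58, 5.95 and 6.13 on 20% protein. The 5% rats at 4 weeks kept to a narrow band above all others, 1.34 ± 0.12 above the 20% rats (2.54-fold, adjusted p = 2.69e-08). The 1-week difference was 0.30 (adjusted p = 0.181), with 0.58 in the fourth run (adjusted p = 0.00469) and 0.03 in the second. The diet effect grew by 1.04 ± 0.17 between the 2 times (adjusted p = 0.00155). From 1 to 4 weeks the gene rose by 0.80 on 5% protein (adjusted p = 0.00052), and on 20% protein the difference was -0.24 (adjusted p = 0.332). The 20% rats also differed between runs (later minus earlier numbers), by -0.40 at 1 week and -0.53 at 4 weeks, while the 4-week diet effect was 1.02 in the first run and 1.39 in the third.

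Slc25a35, counted in this group although its substrate is not settled, fell at both weeks and was the group's only call at 1 week. At 1 week its levels (probe set 10734822) were 5.17, 5.46 and 5.65 on 5% protein and 5.54, 5.86 and 5.97 on 20% protein, with overlap. At 4 weeks they were 5.07, 5.23 and 5.60 on 5% protein and 5.81, 5.90 and 6.02 on 20% protein, with none. The difference of -0.33 ± 0.09 at 1 week (adjusted p = 0.0435) was lost under 16 of 26 alternatives, and that of -0.65 ± 0.09 at 4 weeks (adjusted p = 1.54e-05) under none of 26.

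Slc25a10, the dicarboxylate carrier that exchanges malate or succinate for phosphate, was at 10.22, 10.47 and 10.66 on 5% protein and 10.45, 11.10 and 11.68 on 20% protein at 4 weeks. It fell by 0.61 ± 0.18 (adjusted p = 0.0117). The first run alone gave -1.15 (adjusted p = 0.000172), and the third -0.15. On 20% protein the 4 rats of the third run averaged 10.81 and the 2 of the first run 11.57, a difference of -0.76 (adjusted p = 0.0422). On 5% protein the 1 rat of the third run was at 10.66 and the 5 of the first run averaged 10.42. Slc25a21, the oxodicarboxylate carrier of lysine and tryptophan breakdown, was at 5.23, 5.79 and 5.95 on 5% protein and 5.88, 6.30 and 6.85 on 20% protein. It fell by 0.60 ± 0.20 (adjusted p = 0.0286), but did not pass in the first run alone (-0.34, adjusted p = 0.348) or with the run as a covariate (adjusted p = 0.139). Its 1-week difference was -0.36 (adjusted p = 0.379), with -0.77 in the fourth run (adjusted p = 0.0271) and 0.06 in the second. The citrate carrier Slc25a1, which supplies citrate for fatty acid synthesis, was not called (-0.30 at 4 weeks, adjusted p = 0.0737), nor was the oxoglutarate and malate carrier Slc25a11 (-0.07 at 4 weeks, and -0.25 at 1 week with adjusted p = 0.0743). Slc25a14, Slc25a30 and Slc25a34 differed by -0.06, -0.05 and 0.05 at 4 weeks.

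Among the 9 carriers of adenine nucleotides and phosphate, 2 rose and 2 fell at 4 weeks, and none was called in limma at 1 week (2 at an unadjusted p below 0.05). Slc25a4, the ADP/ATP carrier of heart and skeletal muscle, had the highest log2 difference of any member at 4 weeks, and on 5% protein at that time also the highest SD (1.20). At 4 weeks its lowest, median and highest levels (probe set 10788198) were 6.63, 8.23 and 9.85 on 5% protein and 6.32, 6.46 and 6.92 on 20% protein. At 1 week they were 7.22, 7.84 and 8.50 on 5% protein and 6.32, 7.08 and 7.78 on 20% protein. At 4 weeks 5 of the 6 rats on 5% protein lay above every 20% rat and 1 lay within their range. The rise was 1.58 ± 0.39 (2.99-fold, adjusted p = 0.00352) at 4 weeks, and the first run gave 1.29 alone (adjusted p = 0.0823), the third 2.45 with 1 rat on 5% protein. The 1-week difference of 0.82 did not pass (adjusted p = 0.275). Of 5 striated muscle markers none was called in limma at 4 weeks (2 at an unadjusted p below 0.05, both lower on 5% protein), and their summed log2 level was 7.01 to 7.27 on 5% protein and 7.06 to 8.58 on 20% protein.

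Slc25a5, the ADP/ATP carrier found in most tissues, was not called. Its levels at 4 weeks were 12.34, 12.54 and 12.75 on 5% protein and 12.32, 12.38 and 12.58 on 20% protein, a difference of 0.12 ± 0.08 (adjusted p = 0.342). At 1 week they were 12.26, 12.56 and 12.72 on 5% protein and 12.51, 12.65 and 12.81 on 20% protein, a difference of -0.12 (adjusted p = 0.489). Slc25a3, the phosphate carrier that feeds ATP synthase, rose slightly at 4 weeks, with levels of 11.06, 11.31 and 11.46 on 5% protein and 10.72, 10.90 and 11.33 on 20% protein. Its rise of 0.31 ± 0.11 (adjusted p = 0.0358) was lost under 12 of 26 alternatives, and was 0.09 in the first run and 0.60 in the third. At 1 week its difference had the other sign, -0.20 (adjusted p = 0.368), and the diet effects of the 2 times differed by 0.51 with an adjusted p of 0.0507.

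The falls were calcium-regulated carriers that exchange ATP-Mg for phosphate and so set the adenine nucleotide content of the matrix. Slc25a25 was at 8.19, 8.48 and 9.26 on 5% protein and 9.21, 9.59 and 9.68 on 20% protein at 4 weeks (probe set 10844339). The highest 5% rat overlapped only the lowest 20% rat, and the fall was 0.92 ± 0.18 on the log2 scale (a ratio of 0.529, adjusted p = 0.000404). The first run gave -0.74, which did not pass alone (adjusted p = 0.055), and the third -1.37. Slc25a23 was at 10.45, 10.83 and 11.51 on 5% protein and 11.37, 11.47 and 11.76 on 20% protein, and fell by 0.58 ± 0.17 (adjusted p = 0.0118). A second probe set of Slc25a23 fell by 0.85 (adjusted p = 0.00478). The first run alone did not pass (-0.60, adjusted p = 0.0957), and the third gave -0.62. Also among the adenine nucleotide and phosphate carriers, Slc25a24 and Slc25a41 differed by 0.02 and -0.09 and were not called, nor was the testis form Slc25a31 (0.05). A dimmer probe set of Slc25a24, tested on its own, differed by -0.30 (adjusted p = 0.0657). The peroxisomal Slc25a17 was not called over all rats (0.17 at 4 weeks, adjusted p = 0.228, and 0.23 at 1 week, adjusted p = 0.191). It passed in the first run at 4 weeks (0.45, adjusted p = 0.00531), where the third run gave -0.27, and in the second run at 1 week (0.41, adjusted p = 0.0185), where the fourth gave 0.06.

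Of the 6 amino acid carriers 1 was called at 4 weeks, a share near that of all genes. Slc25a2, which carries ornithine and other basic amino acids, was at 5.25, 5.75 and 6.19 on 5% protein and 5.95, 6.17 and 6.46 on 20% protein at 4 weeks. It fell by 0.38 ± 0.12 (adjusted p = 0.0239), did not pass in the first run alone (-0.45, adjusted p = 0.0987), and was lost under 6 of 26 alternatives. The glutamate carriers Slc25a18 and Slc25a22 differed by 0.24 and 0.30 at 4 weeks, the basic amino acid carrier Slc25a29 by -0.09, the glycine carrier Slc25a38, which serves haem synthesis, by -0.26, and the branched-chain amino acid carrier Slc25a44 by 0.32. None of these passed at 4 weeks, and at 1 week none of the 6 did in limma (2 at an unadjusted p below 0.05). Slc25a44 differed in its diet effect between the runs at 1 week, with 0.70 in the fourth run and -0.76 in the second (difference 1.46, adjusted p = 0.0325).

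The members with other or unsettled roles, 6 in number, gave 2 rises and 2 falls at 4 weeks. Slc25a48, which human and mouse work has linked to choline import into mitochondria, had the lowest log2 difference of the family. At 4 weeks its levels (probe set 10797161) were 4.36, 4.81 and 5.04 on 5% protein and 7.08, 7.27 and 7.69 on 20% protein. At 1 week they were 5.33, 5.97 and 6.32 on 5% protein and 6.17, 6.54 and 7.39 on 20% protein. The diets overlapped at 1 week and lay more than 2 log2 units apart at 4 weeks. The 5% levels at 4 weeks lay toward the low end of the scale, where RMA compresses differences and gives no detection call. The size of the 4-week ratio is therefore uncertain. The difference was -2.59 ± 0.19 (a ratio of 0.166, adjusted p = 6.18e-10) at 4 weeks and -0.73 ± 0.19 (a ratio of 0.601, adjusted p = 0.0237) at 1 week, and the diet effect changed by -1.85 ± 0.26 between them (adjusted p = 0.00029). Both diets moved with time, in opposite directions, by -1.17 on 5% protein (adjusted p = 0.000569) and by 0.69 on 20% protein (adjusted p = 0.0463). The 4-week fall was -2.42 in the first run and -2.49 in the third. At 1 week the fourth run gave -1.24 (adjusted p = 0.00166) and the second -0.23 (adjusted p = 0.647), and the 1-week call was lost under 7 of 26 alternatives.

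Slc25a43, an orphan carrier, was at 7.04, 7.30 and 7.58 on 5% protein and 6.34, 6.65 and 7.04 on 20% protein at 4 weeks (probe set 10936321). The diets just failed to overlap, and the rise was 0.63 ± 0.13 (1.55-fold, adjusted p = 0.000881). The first run gave 0.59 (adjusted p = 0.0472), the third 0.85. Slc25a47, a carrier found mainly in liver, was at 11.84, 12.43 and 12.69 on 5% protein and 10.85, 11.55 and 12.50 on 20% protein at 4 weeks. It rose by 0.73 ± 0.24 (adjusted p = 0.028), with 1.13 in the first run and 0.30 in the third, and the call was lost under 7 of 26 alternatives. At 1 week its levels were 12.46, 12.69 and 12.77 on 5% protein and 11.14, 11.95 and 12.69 on 20% protein, a difference of 0.64 (adjusted p = 0.154). The second run gave 1.18 (adjusted p = 0.0161) and the fourth 0.10, and in the fourth run the 20% rats were 0.93 higher than those of the second run (adjusted p = 0.0391). Slc25a54, at the low end of the scale, was at 3.24, 3.42 and 3.60 on 5% protein and 3.41, 3.73 and 3.81 on 20% protein at 4 weeks. It fell by 0.24 ± 0.08 (adjusted p = 0.0384), a call lost under 11 of 25 alternatives. The alternative with dim genes left out does not hold this gene.

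Slc25a45, another orphan, was not called at either week (0.77 at 4 weeks, adjusted p = 0.0591), but its 1-week diet effect differed between runs. The fourth run gave 0.84 (adjusted p = 0.0658) and the second -1.04 (adjusted p = 0.0245), a difference of 1.88 (adjusted p = 0.00563). The 20% rats carried most of that difference, with a mean of 6.15 in the fourth run and 7.60 in the second (difference -1.46, adjusted p = 0.00186). The 5% rats had means of 6.98 in the fourth run and 6.56 in the second (adjusted p = 0.592). Slc25a46, which acts in the outer membrane on mitochondrial shape, differed by -0.04 at 4 weeks.

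**Figure D3:**
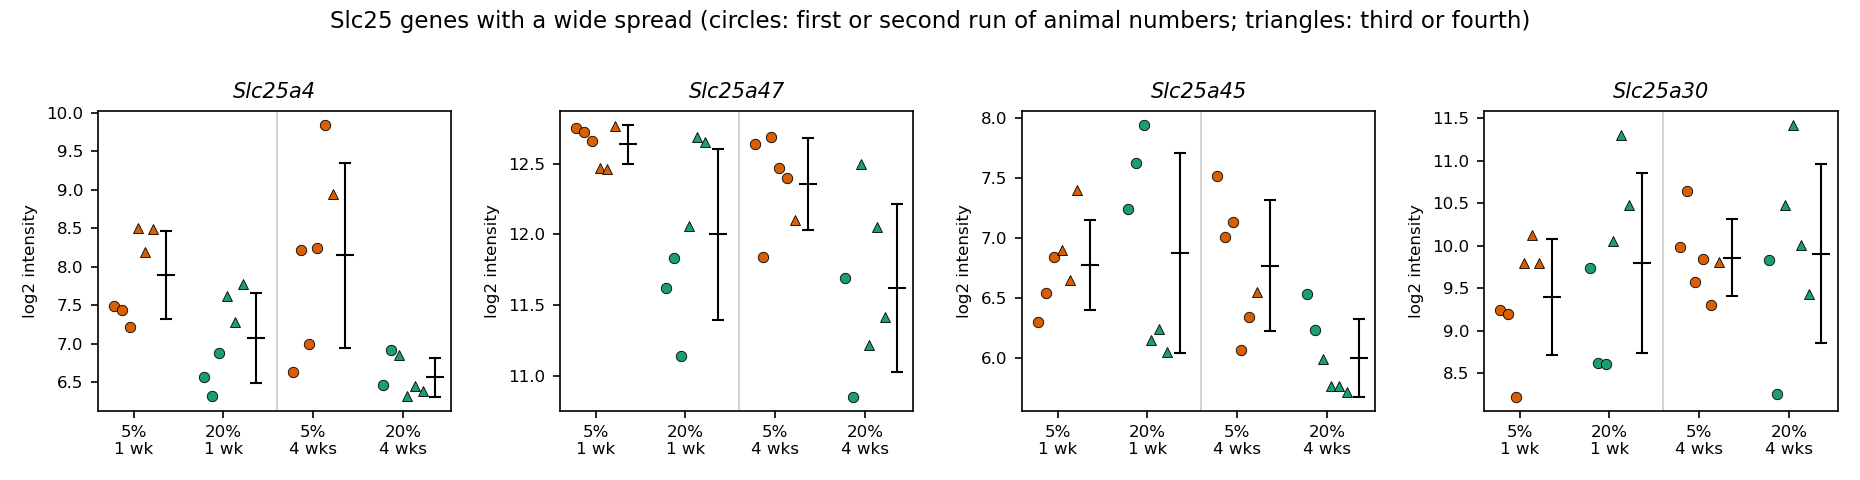
Log2 intensity (y axis, a scale of its own in each panel) of 4 Slc25 genes whose rats scattered widely. Circles are rats of the first or second run of animal numbers and triangles those of the third or the fourth, orange on 5% and green on 20% protein, with mean and SD (n = 6) beside each group. At 1 week the 20% rats of all 4 genes split by run, and so did the 5% rats of Slc25a30 and Slc25a4. On 5% protein at 4 weeks Slc25a4 ran from 6.63 to 9.85 within the first run.

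Spread within groups differed between members. The median SD over the 40 members was 0.18 and 0.21 for the 5% and 20% groups at 1 week, and 0.20 and 0.21 at 4 weeks. Slc25a30, a member related to the uncoupling proteins, had the highest SD in both 20% groups, 1.06 at 1 week and 1.06 at 4 weeks, and in the 5% group at 1 week (0.68). Its 20% rats at 1 week averaged 10.62 in the fourth run and 8.99 in the second (difference 1.62, adjusted p = 0.03), and its diet difference was -0.05 ± 0.45 at 4 weeks. Between the runs of the 20% group at 1 week 6 members were called, 15% of the family beside 10.8% of all genes, and between those of the 5% group none was called (0.783% of all genes, 6 members at an unadjusted p below 0.05 in limma).

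**Figure D4:**
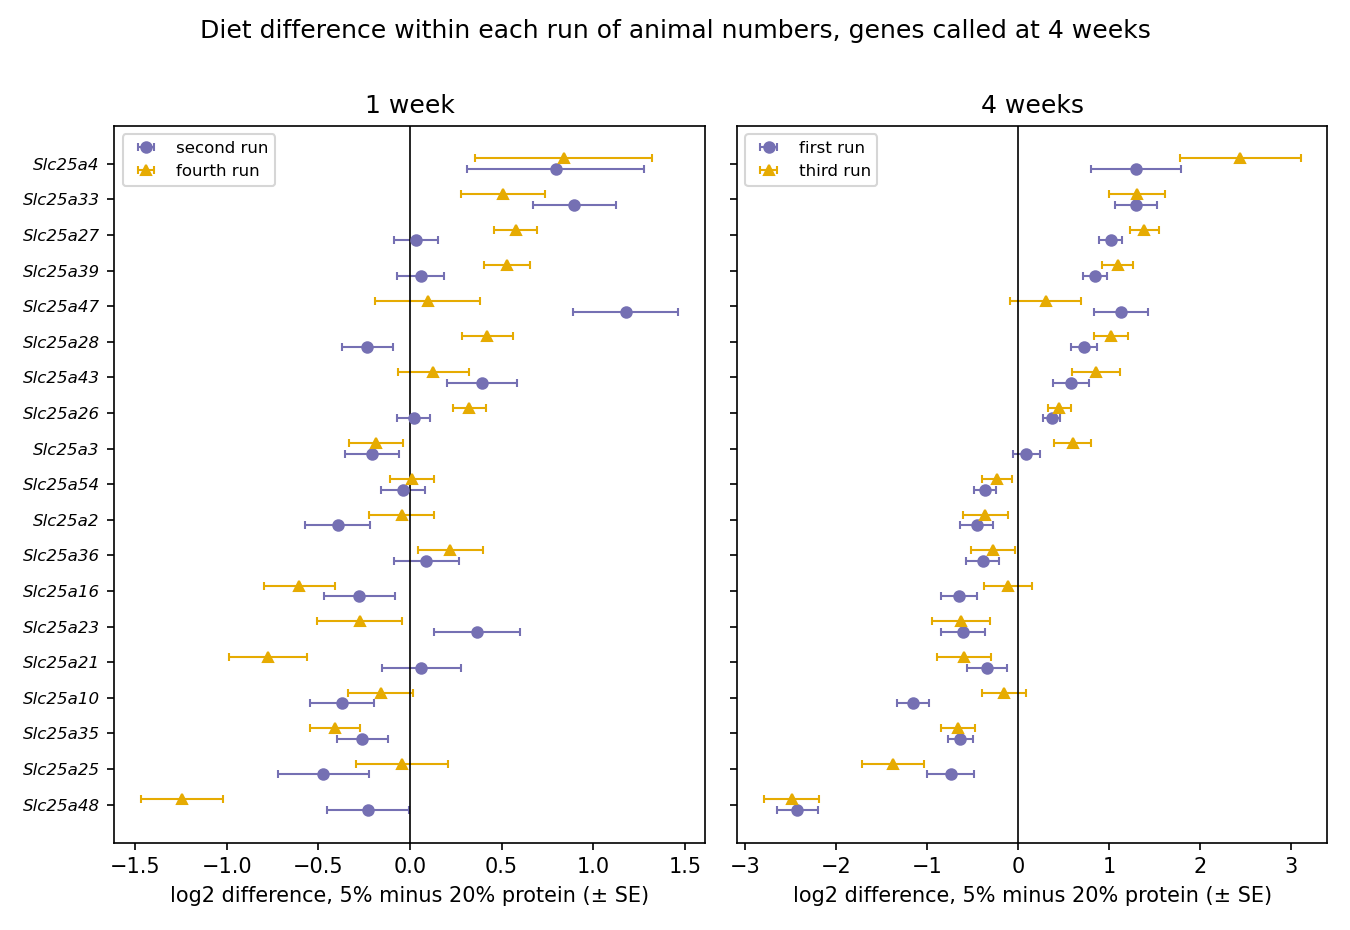
Log2 difference between 5% and 20% protein within each run of animal numbers (x axis, bars are standard errors of the limma fit) for the 19 Slc25 genes called at 4 weeks; the third run has 1 rat on 5% protein. At 4 weeks (right) the first and the third run gave the same sign for all 19 genes, while at 1 week (left) several genes, Slc25a23 and Slc25a28 among them, had opposite signs in the second and the fourth run. The genes were chosen on both 4-week runs together, which favours a shared sign there and not at 1 week.

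Within the first run at 4 weeks 8 members were higher and 5 lower (32.5%, beside 15.9% of all genes), and the 8 members whose diets did not overlap over all rats were among the 13. Those 8 could not overlap within the first run either, since its rats are part of all rats. At 1 week the diet effect differed between the runs for 3 members, 7.5% of the family beside 7.29% of all genes.

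The diet effect differed between 4 weeks and 1 week for 4 members, 10% of the family beside 5.75% of all genes (3 higher, beside 3.54%, and 1 lower, beside 2.2%). Slc25a27, Slc25a28 and Slc25a39 had a more positive effect at 4 weeks and Slc25a48 a more negative one, with the values given above. From 1 to 4 weeks on 5% protein 4 members rose and 3 fell, 17.5% beside 8.29% of all genes (4.15% higher and 4.13% lower). The 2 times did not overlap for 4 members on 5% protein, Slc25a26, Slc25a27, Slc25a48 and Slc25a21 (not called), beside 3.75% of all genes. The rises were Slc25a27 (0.80), Slc25a39 (0.55), Slc25a34 (0.36, adjusted p = 0.0484) and Slc25a26 (0.22), and the falls Slc25a48 (-1.17), Slc25a36 (-0.52, adjusted p = 0.00959) and Slc25a46 (-0.24, adjusted p = 0.0397). On 20% protein Slc25a48 rose and Slc25a37 fell, 5% of the family beside 2.52% of all genes, and the 2 times overlapped for every member (1.95% of all genes did not). These comparisons share groups with the diet comparisons, so their calls are not independent of those. No run of animal numbers held rats of both times. Time and run therefore cannot be told apart here, nor in the diet by time term.

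The rest of the scale was covered as follows, with no level set against that of another gene because probe sets differ in response. Members in the upper end of the array's scale by their mean over all rats were Slc25a5 (12.54), Slc25a47 (12.15), Slc25a23 (11.25), Slc25a3 (11.14) and Slc25a11 (10.94). Slc25a11 lay at 10.77, 10.90 and 10.99 on 5% protein and 10.80, 10.95 and 11.17 on 20% protein at 4 weeks, nearly the same range. At the lower end were Slc25a31 (3.19), Slc25a54 (3.58), Slc25a41 (4.37), Slc25a34 (4.44) and Slc25a14 (4.86). At 4 weeks Slc25a31 lay at 2.87, 3.30 and 3.39 on 5% protein and 2.93, 3.20 and 3.34 on 20% protein, and Slc25a41 at 4.23, 4.36 and 4.42 on 5% protein and 4.30, 4.48 and 4.51 on 20% protein. Slc25a34 lay at 4.29, 4.59 and 4.97 on 5% protein and 4.37, 4.57 and 4.69 on 20% protein, and Slc25a14 at 4.68, 4.82 and 4.86 on 5% protein and 4.66, 4.87 and 5.02 on 20% protein. These ranges overlapped throughout. The 21 members not called at 4 weeks had differences from -0.30 to 0.77, and the 37 not called at 1 week from -0.44 to 0.82.

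Genes around the carriers were counted from lists of the same pathways at 4 weeks. Of the 112 genes on the lists 21 rose and 22 fell, 38.4% beside 25.8% of all genes. SLC25 family genes under other symbols numbered 5, the uncoupling proteins Ucp1, Ucp2 and Ucp3 and the outer membrane proteins Mtch1 and Mtch2. None of them was called in limma (1 at an unadjusted p below 0.05). The shares of the family given above do not count them. Of 6 enzymes of the shuttles that move NADH electrons 2 rose and 2 fell, and Gpd2, the mitochondrial glycerol phosphate dehydrogenase, rose by 1.58 (adjusted p = 1.86e-07) and Mdh2 by 0.25, while Mdh1, cytosolic malate dehydrogenase, fell by 0.43 and Gpd1 by -0.37. Of 9 genes of pyruvate entry and citrate 2 rose (Me1, malic enzyme, by 1.62 and Cs, citrate synthase, by 0.50) and 2 fell (Mpc1, a subunit of the pyruvate carrier, by 0.65 and Pc, pyruvate carboxylase, by 0.47). Of 16 ATP synthase genes 1 rose and 1 fell, Atp5if1, the inhibitor of the enzyme, by 0.40 and Atp5mf by -0.24. Of 15 porins and other mitochondrial transporters 5 rose, among them the ABC transporters Abcb8 (0.47) and Abcb6 (0.38), and Sfxn5, a sideroflexin, fell by 0.76.

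In the amino acid and cofactor pathways that these carriers serve, differences reached both ends of the scale. Of 8 genes of glutamate, proline and ornithine in mitochondria 2 rose and 4 fell (median -0.51). Pycr1 and Aldh18a1, enzymes of proline synthesis, rose by 2.92 and 2.88, while Oat, ornithine aminotransferase, fell by 3.11 and Gls2, liver glutaminase, fell by 1.43. Of 9 genes of branched-chain amino acid oxidation 1 rose and 2 fell, with Bckdk, the kinase that inhibits this pathway, 0.74 higher, and Ivd and Mccc2, enzymes of leucine breakdown, different by -1.01 and -0.42. Of 11 mitochondrial one-carbon and glycine genes 3 rose and 3 fell, Mthfd2 by 1.91 and Mthfd1l by 0.83, Dmgdh by -0.75 and Sardh by -0.55. Of 11 iron-sulfur genes 3 rose (Nfu1 by 1.30, Fdx1 by 0.92) and 2 fell (Glrx5 by -0.35, Iscu by -0.34), and of 7 haem synthesis genes none rose and 2 fell (Alas2 by -1.80, Alad by -0.36). Of 15 genes of coenzyme A, NAD and thiamine 2 rose (Nmnat3 by 0.41, Pank4 by 0.34) and 3 fell, Nampt by -0.91 and Nadk2 by -0.49 among them. At 1 week 12 of the 112 genes of these lists were called, 10.7% beside 4.3% of all genes. Of these, 1 NADH shuttle enzyme (Gpd2, 0.74), 2 proline genes (Aldh18a1, 1.68, and Pycr1, 1.28), 1 branched-chain gene, Mthfd2 (1.09), Fdx1 (1.03) and 2 cofactor genes were higher, and Oat (-1.63), 2 haem synthesis genes and the calcium uniporter Mcu (-0.30) lower.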

How the data were processed

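Liver RNA of 24 rats was measured on 1-colour arrays. The authors deposited intensity of probe sets on the unlogged scale after RMA (which subtracts background, makes the arrays' distributions equal and sums up the probes), per the labels and the submitters' processing notes, which name RMA without a version. Total RNA was labelled as cDNA without removal of ribosomal RNA, per the labels' protocols. Values ran from 3.27 to 15793. Their log2 was used.

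Of 29214 probe sets, 18644 had 1 symbol in the array annotation, 962 several and 9608 none. The probe set with the highest mean was kept for each gene, which left 17245 genes. Of the 40 members 3 had more than 1 probe set, and 4 further probe sets of the family carried several symbols and were left out. All 40 matched the RefSeq table by Entrez identifier. Positions are those of assembly GRCr8, from RefSeq, and the arrays' own build is not given in the sources used here.

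The 4 group means were fitted in 1 model with limma 3.58.1 (lmFit, eBayes) in R 4.3.3, with 20 residual and 3.95 prior degrees of freedom. Tests were two-sided, adjusted by Benjamini-Hochberg over all genes and called below 0.05. Within-run values come from a fit of group-by-run means. The script was tested on simulated data. Errors are SE of the fit (n = 6 per group) unless marked SD, and the number of arrays limits the precision. Whether the animals were housed apart is not stated, so p-values measure the spread between these rats.

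Members and lists were chosen with earlier results of these data known. Every member is accounted for. Values are printed for members called in a diet comparison or diet by time and for the 5 highest and 5 lowest means; members called over time only are given by their 4 largest rises and falls, and lists by at most 2 genes called in each direction with the smallest p at 4 weeks. Slc25a30, Slc25a44 and Slc25a45 were singled out after their values were seen. Alternatives were 2 normalizations, an offset of 16, dim genes left out, probe set rules, array weights, variance model, fewer groups, run, well and left-out animals.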

Additional observations from a re-analysis of the deposited data

Results flagged for a closer look

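Among the 160 groups of 6 rats (40 members in 4 groups), 9 held a rat whose gap to the nearest other reached Dixon's 95% limit as a share of the group's range. Chance flags about 1 in 20 groups, so this number is near what chance gives. On the log2 scale, Slc25a14 was 4.68 in animal 32 (5% protein, 4 weeks) with the nearest rat at 4.80. Slc25a23 was 10.50 in animal 53 (20%, 1 week), nearest 11.30, and Slc25a41 was 4.03 in the same rat, nearest 4.31. Slc25a25 was 9.21 in animal 29 (20%, 4 weeks), nearest 9.53. Slc25a31 was 2.83 in animal 50 (5%, 1 week), nearest 3.13, and 2.87 in animal 31 (5%, 4 weeks), nearest 3.22. Slc25a40 was 5.63 in animal 26 (5%, 4 weeks), nearest 6.05. Slc25a42 was 10.26 in animal 78 (20%, 1 week), the one high value, nearest 9.62. Slc25a46 was 8.34 in animal 54 (5%, 1 week), nearest 8.51.

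The diet effect at 4 weeks differed from that at 1 week for 4 members in the diet by time term of limma. The 4-week minus 1-week effect was 1.04 for Slc25a27 (adjusted p = 0.00155), 0.63 for Slc25a39 (adjusted p = 0.0155), 0.63 for Slc25a28 (adjusted p = 0.0409) and -1.85 for Slc25a48 (adjusted p = 0.00029).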

How the results depend on the processing

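No called diet difference of a member changed sign under any alternative. At 4 weeks 8 of the 19 calls held under all 26 alternatives and 13 under all but single runs and left-out animals. The 26 at that time include the third run alone, whose 1 rat on 5% protein was assumed to vary like the other groups. At 1 week 0 of the 3 held under all 26 and 1, Slc25a33, under all but those: Slc25a33 was lost in the fourth run alone, Slc25a48 under 7 and Slc25a35 under 16. Of the 4 diet by time calls 3 held under all 35 alternatives, all but Slc25a28. Members lower at 1 week numbered 2, but 1 with quantile normalization, medians set equal, trend and robust estimation, well column or the second run alone, and 0 with only the compared groups or well row as random block (estimated correlation 0.146). Members higher at 1 week numbered 1, but 3 in the second and 3 in the fourth run alone. Members lower at 4 weeks numbered 10, but 5 in the first run alone, which has fewer rats. Diet by time gave 3 higher, but 5 with the dimmest genes left out or array weights, and 1 lower, but 2 with the dimmest genes left out or quantile normalization. Time on 20% protein gave 1 higher, but 0 with medians set equal, only the compared groups or well row, and 1 lower, but 0 with quantile normalization, the offset, well column or well row and 3 with array weights. Time on 5% protein gave 4 higher, but 2 with quantile normalization. Leaving out each rat gave 1 to 1 higher and 0 to 2 lower at 1 week, 7 to 10 and 8 to 10 at 4 weeks, 2 to 4 and 1 to 2 for diet by time, 0 to 1 and 0 to 2 for time on 20%, and 2 to 4 and 2 to 3 for time on 5%. The cause of these changes was not tested. No paired analysis was possible because every rat has a number of its own, so none recurs in another group. RMA gives no detection call, so how far signal over background limits the 4 members among those dimmest genes was not tested.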
